A study of Homo sapiens with 15 samples.

Results

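HT-1080 cells derive from a human fibrosarcoma, a malignant tumour of connective tissue. The comparison is between HT-1080 cells made senescent and HT-1080 cells that were still dividing, both in vehicle, across all genes and with most detail on surface proteins, secreted factors, transcription factors and non-coding genes. It rests on 6 of the 15 libraries of the series, 3 senescent and 3 cycling, chosen by their labels and not by any measured value. For the senescent group, a dominant negative TRF2 mutant was expressed for 6 days, followed by 6 h of DMSO, the vehicle. The cycling cells received DMSO for 6 h. Both were grown in medium with serum free of tetracycline and in 5% oxygen. The labels name neither the vector nor a clone, and do not say whether the cycling cells carry the same construct. The other 9 libraries hold senescent cells that received 1 uM of the kinase inhibitor GNF-7 for 6 h or 24 h or DMSO for 24 h. They entered the choice of genes tested, the scaling and the estimate of the spread between replicates, but not the contrast itself. Titles call the libraries biological replicates without saying whether each came from a separate culture, so p-values measure the spread between these samples, which may be technical.

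TRF2, the product of TERF2, is a subunit of shelterin, the protein complex that covers chromosome ends and keeps them from being read as broken DNA. A dominant negative form displaces TRF2, the uncovered ends activate the DNA damage kinases, and these stabilise p53. p53 in turn induces CDKN1A, an inhibitor of cyclin-dependent kinases, which holds the RB proteins on E2F target genes and stops the cell cycle. Senescent cells remain alive and metabolically active, enlarge, accumulate lysosomes, remodel their surface and release cytokines, proteases and matrix proteins.

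Library totals ranged from 25991007 to 32323393 counts. Between 22093 and 22395 genes had at least 1 count in a cycling library and between 25027 and 25292 in a senescent library. Mitochondrial genes took 3.75% to 5.01% of counts in cycling libraries and 11.2% to 12.4% in senescent libraries, and the 10 most abundant genes took 4.64% to 5.31% and 10.4% to 11.6%. The part of these differences in the results was not tested beyond 1 fit that scaled libraries without mitochondrial genes. The first principal component of the 6 libraries held 96.1% of the variance and separated the groups. Values are CPM, the usual scaling of counts to library size, with TMM factors, a scaling that corrects for a few abundant genes taking up a library. A gene was called when the edgeR quasi-likelihood test gave a Benjamini-Hochberg adjusted p under 0.05, and a call of at least 2-fold is named as such. Log2 fold changes are senescent over cycling. Because these are bulk samples, a gene carried by fewer cells and a gene with less RNA per cell cannot be told apart. Of the genes tested, 46.9% share an exon position with another gene on either strand in GENCODE 29, and such genes are marked as overlapping where they are named, since the handling of shared reads is not known. Leading genes of each class were named by a fixed rule of size among called genes whose senescent and cycling values did not overlap. That their groups stand apart was therefore set by the rule. Further family members with a known role were chosen after their values were seen.

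The state markers were looked at first. TERF2 (ENSG00000132604, chr16:69355561-69408571, minus strand) was at 55.7, 56.6 and 62.4 CPM in the cycling libraries and 278, 293 and 291 CPM in the senescent libraries, so every senescent library was above every cycling library (log2 fold change 2.30, SE 0.044, edgeR adjusted p = 1.79e-48). These counts do not separate the introduced form from the cell's own transcript, and TERF2 overlaps AC026464.3 on the same strand. CDKN1A (ENSG00000124762, chr6:36676460-36687339, plus strand), the p53-induced cell cycle inhibitor, was at 184, 185 and 189 CPM in the cycling libraries and 501, 510.1 and 492 CPM in the senescent libraries (log2 fold change 1.43, SE 0.035, edgeR adjusted p = 1.14e-42). MDM2 (ENSG00000135679, chr12:68808176-68850686, plus strand), the ubiquitin ligase that p53 induces and that degrades p53, was at 232, 223 and 234 CPM in the cycling libraries and 631, 668 and 657 CPM in the senescent libraries (log2 fold change 1.504, SE 0.037, edgeR adjusted p = 7.36e-43). CDKN1A overlaps DINOL and MDM2 overlaps the gene of carboxypeptidase M, each on the other strand, and MDM2 also overlaps AC025423.2 on its own strand. MKI67 (ENSG00000148773, chr10:128096659-128126385, minus strand), which encodes the proliferation antigen Ki-67, was at 484, 533 and 509 CPM in the cycling libraries and 146, 153 and 148 CPM in the senescent libraries (log2 fold change -1.77, SE 0.044, edgeR adjusted p = 1.62e-36). The groups did not overlap for any of these 4 genes, and the 3 p53-pathway and shelterin genes were high, and MKI67 low, in all 3 senescent libraries.

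Markers of the labelled cell type were abundant in both states. The 12 mesenchymal and HT-1080 markers summed to between 9489 and 9706 CPM in cycling libraries and to between 9377 and 10024 CPM in senescent libraries, with THY1 at or under 3 counts in each. Epithelial markers summed to 744 to 760 CPM and then to 397 to 409 CPM, with CDH1, KRT14 and GRHL2 at or under 3 counts in each library. Markers of blood cells summed to at most 1.64 CPM, of endothelium to at most 2.58 CPM and of nerve and muscle to at most 11.2 CPM in any library, and CD3E, SOX10, DES and MYOD1 were at or under 3 counts in each.

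Most genes differed between the 2 states, so counts within a class or family are read against the shares of all genes given here. The test called 12999 of 18563 genes (70.0%). Senescent levels were the higher ones for 6615 (35.6%) and the lower ones for 6384 (34.4%), and 13270 had senescent and cycling values that did not overlap (71.5%). The calls of at least 2-fold were uneven, with 3434 rises (18.5%) and 1404 falls (7.56%). They also depended on the level of a gene. Below a mean of 1 CPM over the 6 libraries, at least 2-fold rises made up 38.8% of 4877 genes and falls 3.28%. The low-count filter ran over 15 libraries, 12 of them senescent, so a low gene could enter through senescent libraries. With the filter run on the 6 libraries alone, 40.3% of 2713 genes below 1 CPM rose at least 2-fold and 4.87% fell. Between 20 and 100 CPM 4.42% of 5614 genes rose and 10.1% fell, and at 100 CPM or more 3.47% of 2274 genes rose and 10.6% fell. Among the 11006 genes with a mean of at least 5 CPM, 9090 were called (82.6%), 3300 higher (30.0%) and 5790 lower (52.6%), 751 rose at least 2-fold (6.82%), 1081 fell at least 2-fold (9.82%), and 9204 had groups that did not overlap (83.6%). The median log2 fold change was 0.06 over all genes tested and -0.18 over these 11006. A fit that filtered at a mean of 5 CPM over all 15 libraries and scaled on those genes alone shifted the log2 fold changes of the genes it kept by 0.15 and called 4546 higher and 4665 lower. There 1173 genes rose at least 2-fold and 746 fell, so the larger of these counts changed sides with the scaling. Scaling by library totals called 7726 higher and 5282 lower, 59.4% of its calls being higher against 50.9%. Small changes in abundant genes are therefore relative to the scaling.

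The share of genes with a rise of at least 2-fold was above that of all genes for secreted factors, non-coding genes and surface proteins, and below it for transcription factors. By the lists used here, 886 surface protein genes, 398 secreted factor genes, 859 transcription factor genes and 1647 non-coding genes were tested. The lists were chosen with earlier results of these data known. At least 2-fold rises numbered 239 among surface genes (27.0%), 152 among secreted factor genes (38.2%), 119 among transcription factor genes (13.9%) and 527 among non-coding genes (32.0%), beside 18.5% of all genes. At least 2-fold falls numbered 45 (5.08%), 25 (6.28%), 45 (5.24%) and 47 (2.85%), beside 7.56% of all genes. Median log2 fold changes were 0.36, 0.73, 0.07 and 0.61 in the same order, beside 0.06 over all genes. Restricting to a mean of at least 5 CPM left 76 rises and 32 falls of 526 surface genes, 73 rises and 13 falls of 232 secreted factor genes, 38 rises and 38 falls of 617 transcription factor genes, and 69 rises and 11 falls of 312 non-coding genes. In that order rises made up 14.4%, 31.5%, 6.16% and 22.1%, beside 6.82% of all genes at that level. Falls made up 6.08%, 5.60%, 6.16% and 3.53%, beside 9.82%. The fit filtered and scaled on genes of at least 5 CPM gave 103 rises and 21 falls in surface genes, 89 and 5 in secreted factor genes, 59 and 22 in transcription factor genes and 108 and 6 in non-coding genes.

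**Figure D1:**
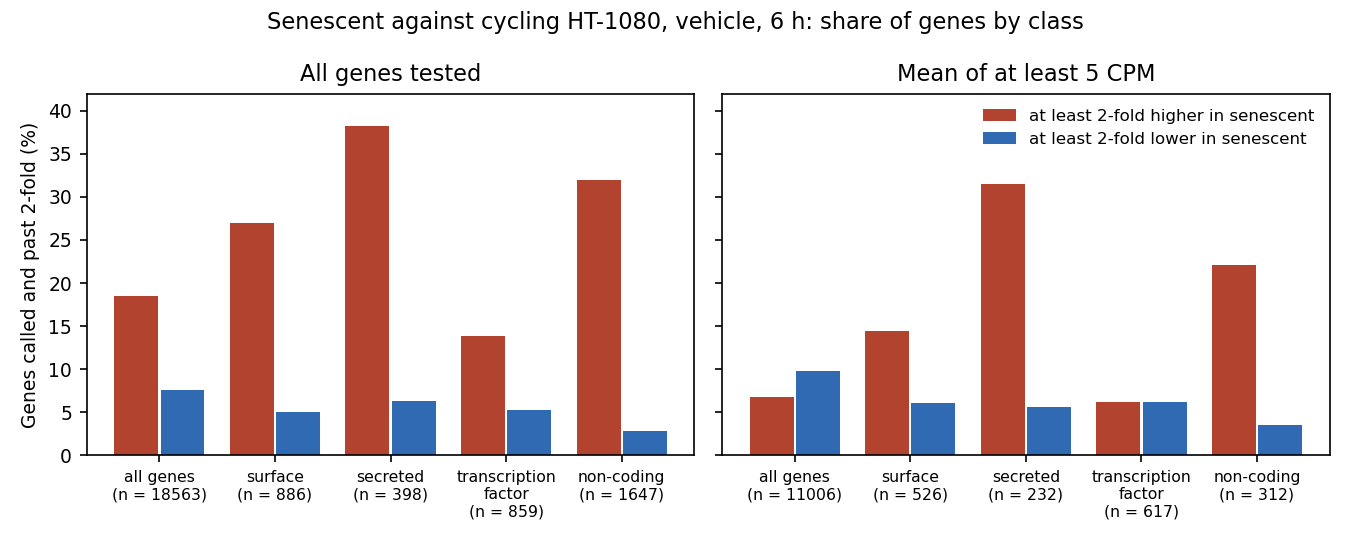
Bars give the percentage of genes in each class that were called and at least 2-fold higher (red) or lower (blue) in senescent than in cycling HT-1080 cells, for all genes tested (left) and for genes with a mean of at least 5 CPM over the 6 libraries (right), with the number of genes under each class. Secreted factor genes had the tallest red bar in both panels (38.2% and 31.5%), against 18.5% and 6.82% of all genes.

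The classes were also compared by their share of the transcriptome. In TPM, a scale that divides counts by gene length and gives each library the same total, secreted factor genes took 3.02 ± 0.0816% in cycling and 3.59 ± 0.177% in senescent libraries (SD, n = 3), and transcription factor genes 2.07 ± 0.0536% and 1.59 ± 0.0221%. Surface protein genes, with the SLC25 mitochondrial carriers counted among them, took 2.94 ± 0.0893% and 2.86 ± 0.127%, with ranges that overlapped. Non-coding genes took 1.24 ± 0.0258% and 1.31 ± 0.0115%. In secreted and transcription factor genes the groups did not overlap, nor did they in non-coding genes. The TPM total includes mitochondrial genes, which took 3.75% to 5.01% of counts in cycling and 11.2% to 12.4% in senescent libraries. Each share is relative to that total and is not on the TMM scale of the calls. CD44, for example, was called higher but went from 492 to 485 TPM.

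Among surface protein genes with a mean of at least 5 CPM, the largest rises were in genes of signalling receptors and adhesion proteins. GPNMB (ENSG00000136235, chr7:23235967-23275108, plus strand), a membrane glycoprotein of lysosomes and the cell surface, was at 5.83, 6.47 and 6.99 CPM in the cycling libraries and 75.9, 68.7 and 73.5 CPM in the senescent libraries, with the 3 senescent libraries far above and close to each other (log2 fold change 3.49, SE 0.067, edgeR adjusted p = 2.89e-48). GRIN2C (ENSG00000161509, chr17:74842023-74861504, minus strand), a subunit of the NMDA glutamate receptor, was at 2.57, 3.41 and 3.26 CPM in the cycling libraries and 41.4, 51.8 and 42.7 CPM in the senescent libraries (log2 fold change 3.87, SE 0.26, edgeR adjusted p = 8.50e-08). PTGFR, the receptor for prostaglandin F2alpha, was at 3.34, 2.48 and 2.77 CPM in cycling cells against 20.4, 19.1 and 19.1 CPM in senescent cells (log2 fold change 2.78, SE 0.12, edgeR adjusted p = 4.11e-30). All 3 genes were low in each cycling library and high in each senescent library, with no overlap. ADGRF4, an adhesion G protein-coupled receptor that overlaps ADGRF2 on the same strand, rose from 2.04 to 17.9 CPM, log2 fold change 3.14. JAG2, a Notch ligand that overlaps AL512356.1 on the same strand, rose from 1.59 to 10.5 CPM, log2 fold change 2.76. CEACAM1, an immunoglobulin-type adhesion molecule that overlaps LIPE-AS1, rose from 1.98 to 12.8 CPM, log2 fold change 2.702.

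The largest falls were in genes of different kinds. ITGB2 (ENSG00000160255, chr21:44885953-44931989, minus strand), the integrin beta subunit best known from leukocytes, was at 22.1, 19.97 and 21.9 CPM in the cycling libraries and 3.24, 2.78 and 2.71 CPM in the senescent libraries (log2 fold change -2.87, SE 0.14, edgeR adjusted p = 5.73e-28), and it overlaps ITGB2-AS1 on the other strand. NGFR, the low-affinity nerve growth factor receptor of the TNF receptor superfamily, was at 96.4, 91.2 and 98.7 CPM in cycling cells against 23.9, 21.9 and 21.4 CPM in senescent cells (log2 fold change -2.09, SE 0.062, edgeR adjusted p = 2.54e-38). SLC29A1, the nucleoside carrier ENT1, was at 126, 132 and 132 CPM in cycling cells against 33.9, 33.1 and 31.9 CPM in senescent cells (log2 fold change -1.98, SE 0.054, edgeR adjusted p = 1.98e-40). Each of the 3 was low in all senescent libraries and did not overlap. NECTIN1, a cell adhesion molecule, fell from 159 to 43.8 CPM, log2 fold change -1.86. LAT2, an adaptor protein of the membrane, fell from 10.4 to 2.35 CPM, log2 fold change -2.15, and SLC8A1, a sodium and calcium exchanger, from 9.98 to 2.84 CPM, log2 fold change -1.82. NGFR, NECTIN1 and SLC8A1 overlap genes on the other strand.

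**Figure D2:**
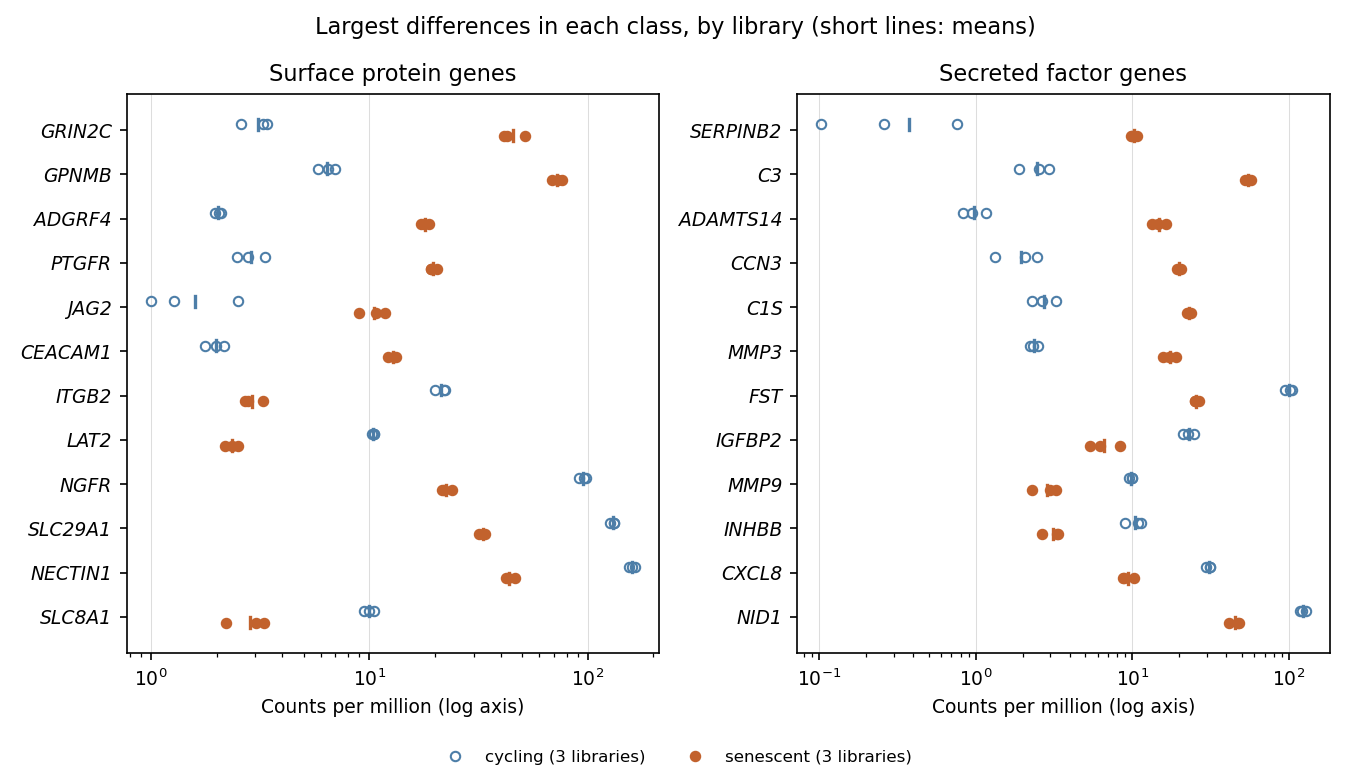
Each point is 1 library, open for cycling and filled for senescent, on a log axis of CPM, and short lines are group means, for the 6 largest rises and 6 largest falls among surface protein genes (left) and secreted factor genes (right). Only genes whose groups do not overlap could be chosen, and SERPINB2 has the widest spread among cycling libraries, from 0.103 to 0.764 CPM.

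Protocadherins, cell adhesion proteins encoded in tandem arrays, were mostly higher. Of 43 tested, 32 were higher and 3 lower, 30 rose at least 2-fold and 1 fell at least 2-fold, and the median log2 fold change was 1.94. In the beta array all 15 tested genes rose at least 2-fold, with a median of 3.44. PCDHB2, which overlaps a gene on the other strand, was at 1.25, 1.27 and 1.66 CPM in cycling cells against 10.9, 9.06 and 7.46 CPM in senescent cells (log2 fold change 2.701, SE 0.17, edgeR adjusted p = 1.68e-21). PCDHB14 was at 0.764, 0.620 and 0.588 CPM in cycling cells against 8.51, 6.92 and 8.95 CPM in senescent cells (log2 fold change 3.63, SE 0.19, edgeR adjusted p = 4.71e-26). Levels were low in every case, and PCDHB2 was the only beta gene with a mean of at least 5 CPM. Genes this low in cycling cells could pass the low-count filter through the senescent libraries, where they are higher. Among all genes tested, 38.8% of those below a mean of 1 CPM and 29.5% of those from 1 to 5 CPM rose at least 2-fold. In the gamma array 12 of 20 tested genes rose at least 2-fold, yet PCDHGC3, at a far higher count, was called lower (from 79.2 to 65.2 CPM, log2 fold change -0.28). Gamma genes share their last exons and so cannot be told apart by reads there, which makes their single values uncertain. Of the 5 solitary protocadherins tested, PCDH7 rose from 1.45 to 5.60 CPM, log2 fold change 1.96, and PCDH1 was lower (from 39.7 to 19.996 CPM, log2 fold change -0.99).

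**Figure D3:**
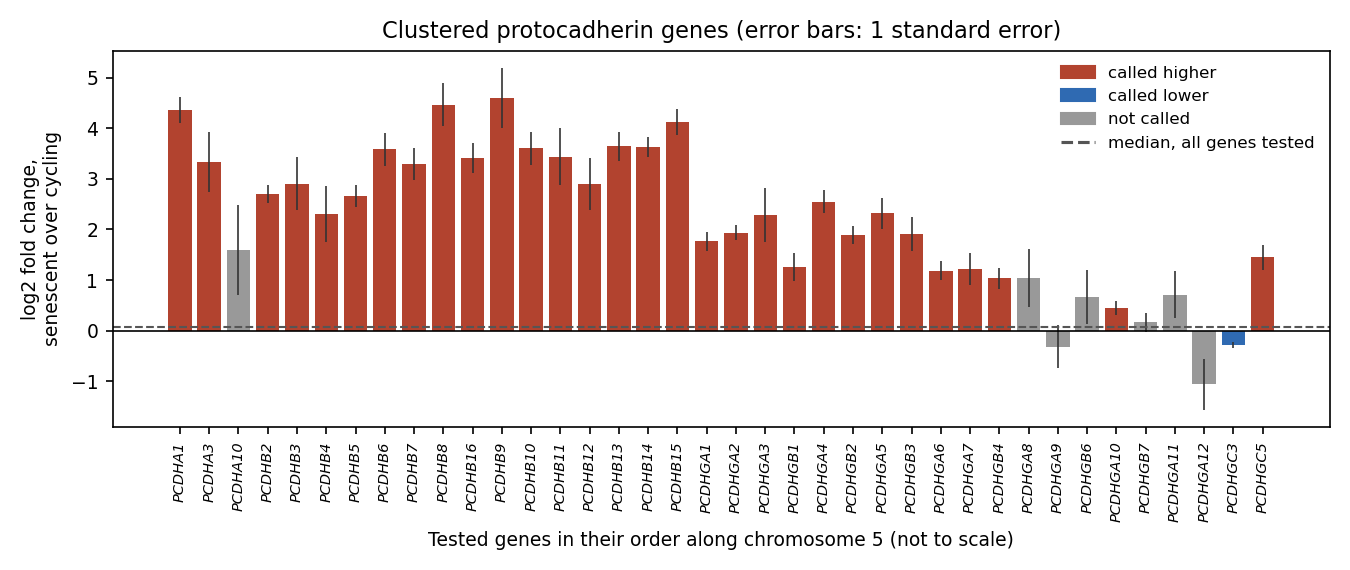
Bars give the log2 fold change, senescent over cycling, of each tested clustered protocadherin gene in its order along chromosome 5, with 1 standard error, coloured by the edgeR call, and the dashed line is the median of all genes tested. All 15 beta genes stand above 2 on the log2 scale, while 6 gamma genes were not called and PCDHGC3 was lower. PCDHB9 had at most 1 count in a cycling library, so the height of its bar is not a measured ratio.

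MHC class I genes, whose products display peptides to T cells and are read by natural killer cells, were called higher in 7 of 7, 4 of them at least 2-fold, with a median log2 fold change of 1.09. HLA-B was at 53.9, 53.5 and 53.9 CPM in cycling cells against 136, 129 and 138 CPM in senescent cells (log2 fold change 1.32, SE 0.044, edgeR adjusted p = 1.04e-35) and HLA-C at 60.6, 59.0 and 59.6 CPM in cycling cells against 127, 129 and 126 CPM in senescent cells (log2 fold change 1.09, SE 0.045, edgeR adjusted p = 3.06e-31). B2M, the shared light chain, rose from 704 to 880.0 CPM, log2 fold change 0.32. The HLA genes are near copies of each other, and HLA-B and HLA-C overlap on the same strand in the annotation, so reads may be split between them. Among 29 immune checkpoint and natural killer ligand genes, 17 were higher and 4 lower, with 2 rises and 1 fall of at least 2-fold. Over all genes, 35.6% were higher and 18.5% rose at least 2-fold. CD274, which encodes the checkpoint ligand PD-L1, was at 45.6, 52.4 and 50.0 CPM in cycling cells against 24.6, 21.3 and 23.1 CPM in senescent cells (log2 fold change -1.10, SE 0.078, edgeR adjusted p = 2.77e-19), while PDCD1LG2, which encodes PD-L2, rose from 12.5 to 16.5 CPM, log2 fold change 0.39. CD276 (B7-H3) rose from 127 to 171 CPM, log2 fold change 0.43, the stress ligand ULBP2 rose from 19.7 to 30.8 CPM, log2 fold change 0.64, and MICA fell from 25.7 to 19.7 CPM, log2 fold change -0.38. CD47, the signal that restrains phagocytes, was not called (from 158 to 149.8 CPM, log2 fold change -0.08).

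Death and survival receptors of the TNF receptor superfamily went in both directions, with 12 of 19 higher and 4 lower. The shares of all genes were 35.6% and 34.4%. TNFRSF19 was at 2.57, 3.34 and 3.10 CPM in cycling cells against 16.9, 14.8 and 14.2 CPM in senescent cells (log2 fold change 2.34, SE 0.12, edgeR adjusted p = 9.74e-26) and TNFRSF14, the receptor HVEM, at 15.6, 13.9 and 13.4 CPM in cycling cells against 55.5, 60.9 and 56.8 CPM in senescent cells (log2 fold change 2.02, SE 0.078, edgeR adjusted p = 1.25e-20). The death receptor FAS rose from 52.5 to 125 CPM, log2 fold change 1.25, and the TRAIL receptor TNFRSF10B from 759 to 1016 CPM, log2 fold change 0.42. TNFRSF1B, the TNF receptor TNFR2, fell from 13.9 to 4.57 CPM, log2 fold change -1.605. TNFRSF14 overlaps an antisense gene.

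Receptor tyrosine kinases, which pass growth factor signals across the membrane, moved in both directions. Of 34 tested, 15 were lower, where 34.4% of all genes were, and 8 were higher, with a median log2 fold change of -0.31. Rises of at least 2-fold numbered 6 and falls 0. Of the 15 with a mean of at least 5 CPM, 11 were lower and 4 higher, where 52.6% of all such genes were lower. AXL fell from 1024 to 580.3 CPM, log2 fold change -0.82, MET from 536 to 371 CPM, log2 fold change -0.53, EGFR from 154 to 106 CPM, log2 fold change -0.55 and TYRO3 from 80.3 to 44.6 CPM, log2 fold change -0.85. DDR1, a collagen receptor, was at 141, 139 and 141 CPM in cycling cells against 342, 312 and 313 CPM in senescent cells (log2 fold change 1.20, SE 0.038, edgeR adjusted p = 5.65e-37), and IGF1R, the insulin-like growth factor receptor, rose from 47.1 to 96.6 CPM, log2 fold change 1.04. By TPM, AXL was the most abundant surface gene outside the mitochondrial carriers in cycling cells, at 685 TPM, and was at 356 TPM in senescent cells, where ITGA3 led at 850 TPM.

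Integrins, which anchor cells to the matrix, moved in both directions. Of 21 tested, 9 were higher and 4 lower, where 35.6% and 34.4% of all genes were. ITGA3, a laminin-binding alpha subunit, rose from 1242 to 2636 CPM, log2 fold change 1.09 and ITGAX rose from 15.3 to 49.2 CPM, log2 fold change 1.69, whereas ITGA6, another laminin-binding alpha subunit, fell from 838 to 357 CPM, log2 fold change -1.23. ITGA6 overlaps genes on the other strand. ITGB1, the common beta partner, rose from 1063 to 1233 CPM, log2 fold change 0.21. Cadherins numbered 13 higher and 2 lower of 22, with CDH13 rising from 151 to 355 CPM, log2 fold change 1.23, CDH11 rising from 203 to 364 CPM, log2 fold change 0.84 and CDH2, the N-cadherin gene, falling from 240.0 to 152 CPM, log2 fold change -0.66. Of 10 syndecans, glypicans and CD44, 9 were higher and 1 lower, including GPC1 (from 201 to 586 CPM, log2 fold change 1.55) and GPC6 (from 6.77 to 21.9 CPM, log2 fold change 1.69). CD44 itself, a hyaluronan receptor, was called higher by little (from 1429 to 1534 CPM, log2 fold change 0.10).

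Ion channel and ABC transporter genes were more often higher than lower. Of 88 ion channel genes other than potassium channels, 55 were higher and 11 lower, beside 35.6% and 34.4% of all genes. Of these, 35 rose and 3 fell at least 2-fold, beside 18.5% and 7.56%, and the median log2 fold change was 0.89. Of the 41 with a mean of at least 5 CPM, 26 were higher and 6 lower, beside 30.0% and 52.6% of all such genes. At that level, 8 rose and 2 fell at least 2-fold, with a median of 0.36 beside -0.18. SCN2A, a voltage-gated sodium channel, rose from 11.7 to 42.1 CPM, log2 fold change 1.85, P2RX6, an ATP-gated channel, from 4.35 to 20.001 CPM, log2 fold change 2.198 and TRPV1, the capsaicin receptor, from 2.64 to 11.55 CPM, log2 fold change 2.12. LRRC8C, a subunit of the volume-regulated anion channel, fell from 60.0 to 19.8 CPM, log2 fold change -1.603. P2RX6 and LRRC8C overlap other genes. Of 30 ABC transporters, which pump lipids and drugs, 18 were higher and 7 lower. Of the 17 with a mean of at least 5 CPM, 11 were higher and 5 lower, with a median log2 fold change of 0.38. ABCC3 was at 11.6, 8.74 and 10.7 CPM in cycling cells against 55.1, 55.5 and 49.9 CPM in senescent cells (log2 fold change 2.37, SE 0.077, edgeR adjusted p = 9.80e-32), ABCA1, the cholesterol exporter, rose from 8.80 to 29.2 CPM, log2 fold change 1.72, and ABCB10, a mitochondrial transporter, fell from 47.5 to 19.1 CPM, log2 fold change -1.31.

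Solute carriers outside the mitochondrial SLC25 family numbered 104 higher and 53 lower of 198, at least 2-fold in 47 and 11 of them, and with a median log2 fold change of 0.32. The amino acid carriers of the SLC1A, SLC7A and SLC38A groups stood at 6 higher and 9 lower of 18, with a median of -0.16, a split made after values were seen. SLC7A5, the large neutral amino acid carrier LAT1, was at 472, 462 and 474 CPM in cycling cells against 169, 159 and 159 CPM in senescent cells (log2 fold change -1.53, SE 0.037, edgeR adjusted p = 6.31e-43). SLC1A5, a glutamine carrier, fell from 330.5 to 147 CPM, log2 fold change -1.17, SLC7A1, a cationic amino acid carrier, from 224 to 102 CPM, log2 fold change -1.13 and SLC16A1, the lactate carrier MCT1, from 291 to 125 CPM, log2 fold change -1.23. SLC19A1, the reduced folate carrier, fell from 90.8 to 35.9 CPM, log2 fold change -1.34. Against these, SLC43A2, another neutral amino acid carrier, rose from 3.30 to 16.4 CPM, log2 fold change 2.30, SLC22A18 rose from 6.01 to 23.3 CPM, log2 fold change 1.95 and SLC38A7, a lysosomal glutamine exporter, from 20.3 to 49.9 CPM, log2 fold change 1.30.

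Of 16 surface proteins that have been reported on senescent cells, 10 were higher and 4 lower, with 4 rises and 1 fall of at least 2-fold. Beside GPNMB, PLD3, a lysosomal exonuclease, was at 64.4, 60.0 and 61.0 CPM in cycling cells against 185, 161 and 165 CPM in senescent cells (log2 fold change 1.47, SE 0.047, edgeR adjusted p = 5.13e-33), and ARMCX3 rose from 29.3 to 60.8 CPM, log2 fold change 1.05. PLAUR, which encodes the urokinase receptor, went the other way (from 196 to 148 CPM, log2 fold change -0.40), as did LAT2. PLD3 overlaps genes on both strands. Plexins, the receptors for semaphorins, separated by member: PLXNB3, which overlaps SRPK3, rose from 16.1 to 78.2 CPM, log2 fold change 2.28 and PLXNB1 from 30.5 to 83.4 CPM, log2 fold change 1.45, while PLXNA4 fell from 67.0 to 20.9 CPM, log2 fold change -1.68 and PLXNA2 from 73.1 to 32.2 CPM, log2 fold change -1.18. Within the receptors for lysophosphatidic acid, LPAR2 rose from 5.12 to 20.1 CPM, log2 fold change 1.97, and LPAR1 fell from 13.2 to 5.30 CPM, log2 fold change -1.32. Further surface protein genes named above that overlap another annotated gene are PCDHB14, PCDHGC3, MICA, FAS, TNFRSF10B, TNFRSF1B, AXL, EGFR, DDR1, ITGB1, CDH13, CDH11, CDH2, GPC6, CD44, SCN2A, TRPV1, SLC7A5, SLC1A5, SLC16A1, SLC19A1, SLC22A18 and ARMCX3.

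Secreted factors had the highest share of rises among the 4 classes. C3 (ENSG00000125730, chr19:6677704-6730562, minus strand), the central component of complement, was at 2.94, 2.55 and 1.89 CPM in the cycling libraries and 57.1, 52.7 and 55.4 CPM in the senescent libraries (log2 fold change 4.4996, SE 0.091, edgeR adjusted p = 2.00e-46). SERPINB2 (ENSG00000197632, chr18:63871692-63903890, plus strand), the plasminogen activator inhibitor PAI-2, was at 0.764, 0.103 and 0.261 CPM in the cycling libraries and 9.97, 9.85 and 10.8 CPM in the senescent libraries (log2 fold change 4.82, SE 0.22, edgeR adjusted p = 3.02e-28), and it overlaps SERPINB10 on the same strand. ADAMTS14 (ENSG00000138316, chr10:70672803-70762441, plus strand), which trims procollagen, was at 1.17, 0.826 and 0.947 CPM in the cycling libraries and 14.6, 16.5 and 13.3 CPM in the senescent libraries (log2 fold change 3.93, SE 0.16, edgeR adjusted p = 1.75e-31). For each of these the 3 senescent libraries were high and the 3 cycling libraries near the bottom of the range. CCN3, a matricellular protein, rose from 1.95 to 19.9 CPM, log2 fold change 3.32, and C1S, a serine protease of the classical complement pathway that overlaps EMG1, rose from 2.73 to 22.9 CPM, log2 fold change 3.07. MMP3, the protease stromelysin-1, rose from 2.36 to 17.3 CPM, log2 fold change 2.88 and overlaps WTAPP1 on the other strand.

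Among falls, FST (ENSG00000134363, chr5:53480409-53487134, plus strand), the activin-binding protein follistatin, was at 95.2, 105 and 102 CPM in the cycling libraries and 25.1, 26.8 and 25.1 CPM in the senescent libraries (log2 fold change -1.97, SE 0.059, edgeR adjusted p = 1.76e-38). CXCL8, which encodes the neutrophil attractant interleukin-8, was at 29.4, 31.6 and 31.4 CPM in cycling cells against 8.74, 10.3 and 8.91 CPM in senescent cells (log2 fold change -1.72, SE 0.097, edgeR adjusted p = 2.16e-24). NID1, a basement membrane linker, was at 119, 122 and 128 CPM in cycling cells against 47.8, 41.7 and 47.4 CPM in senescent cells (log2 fold change -1.43, SE 0.058, edgeR adjusted p = 2.28e-27). These 3 were low in each senescent library without overlap. IGFBP2, an IGF-binding protein, fell from 23.0 to 6.64 CPM, log2 fold change -1.79, MMP9, the protease gelatinase B, from 9.85 to 2.86 CPM, log2 fold change -1.79 and INHBB, an activin subunit, from 10.4 to 3.10 CPM, log2 fold change -1.75. MMP9 overlaps SLC12A5-AS1.

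Most complement genes rose. Of 14 tested, 10 were higher, none lower and 4 not called, all 10 rose at least 2-fold, and the median log2 fold change was 1.73. C1R, the partner protease of C1S, rose from 3.61 to 10.9 CPM, log2 fold change 1.58, C1RL from 32.2 to 82.1 CPM, log2 fold change 1.35, the regulator CFI from 0.0951 to 1.5996 CPM, log2 fold change 4.02, and CLU, the extracellular chaperone clusterin, from 139 to 283 CPM, log2 fold change 1.02. CFI had few counts in cycling cells, so its ratio is uncertain. C5 was not called (from 2.26 to 2.62 CPM, log2 fold change 0.22), and C4A and C4B, near-identical copies, are uncertain.

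Cytokines of the interleukin group were 13 higher and 3 lower of 28 tested, and 11 rose at least 2-fold. CSF1 (ENSG00000184371, chr1:109910242-109930992, plus strand), the macrophage growth factor, was at 82.2, 78.3 and 75.5 CPM in the cycling libraries and 306, 274 and 285 CPM in the senescent libraries (log2 fold change 1.88, SE 0.042, edgeR adjusted p = 9.12e-45). IL1B was at 44.8, 47.5 and 50.7 CPM in cycling cells against 116, 112 and 118 CPM in senescent cells (log2 fold change 1.27, SE 0.045, edgeR adjusted p = 2.25e-34), and IL24 at 137, 140.1 and 141 CPM in cycling cells against 339, 332 and 337 CPM in senescent cells (log2 fold change 1.27, SE 0.035, edgeR adjusted p = 4.28e-40). All 3 were high in every senescent library. Of the members at low counts, IL6 rose from 0.529 to 3.85 CPM, log2 fold change 2.85, IL1A from 1.94 to 6.28 CPM, log2 fold change 1.70, IL36B from 0.222 to 5.80 CPM, log2 fold change 4.66 and the interferon IFNE from 1.91 to 8.82 CPM, log2 fold change 2.18. LIF rose from 70.2 to 139 CPM, log2 fold change 0.98, KITLG, the ligand of KIT, from 10.1 to 25.5 CPM, log2 fold change 1.33 and IL32 from 6.08 to 19.2 CPM, log2 fold change 1.66. IL11 and MIF were lower, from 76.5 to 54.5 CPM, log2 fold change -0.49 and from 208 to 155 CPM, log2 fold change -0.42. Only 8 of 41 chemokine genes in the table could be tested, of which 3 were higher and 1, CXCL8, lower. CCL2, which attracts monocytes, was at 15.2, 14.9 and 15.02 CPM in cycling cells against 34.7, 28.9 and 34.5 CPM in senescent cells (log2 fold change 1.12, SE 0.082, edgeR adjusted p = 3.00e-19), and CCL20 rose from 1.08 to 2.62 CPM, log2 fold change 1.29. The chemokine median was 0.99 and turned negative in the fit filtered at 5 CPM, which kept 2 of them.

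Growth factors differed by family. GDF15 (ENSG00000130513, chr19:18374731-18389176, plus strand), a stress-induced member of the TGF-beta superfamily, was at 197, 187 and 189 CPM in the cycling libraries and 1029, 1003 and 971 CPM in the senescent libraries (log2 fold change 2.39, SE 0.037, edgeR adjusted p = 5.66e-53). By TPM it went from 316 to 1516. VEGFA, the main vascular growth factor, was at 223, 219.6 and 219 CPM in cycling cells against 583, 603 and 589 CPM in senescent cells (log2 fold change 1.42, SE 0.036, edgeR adjusted p = 5.03e-42), and it overlaps AL136131.3 on the other strand. STC2, a stanniocalcin, was at 184, 184 and 186 CPM in cycling cells against 653, 563 and 629.8 CPM in senescent cells (log2 fold change 1.73, SE 0.054, edgeR adjusted p = 4.39e-18). All 3 were above the cycling range in each senescent library. Of 19 TGF-beta, BMP, GDF and activin ligands, 12 were higher and 4 lower. INHBA, the activin A subunit, rose from 3.31 to 12.4 CPM, log2 fold change 1.91 and BMP2 from 0.619 to 5.39 CPM, log2 fold change 3.12, while INHBE fell from 3.01 to 0.261 CPM, log2 fold change -3.49. LTBP3, which stores latent TGF-beta in the matrix, rose from 128 to 340.4 CPM, log2 fold change 1.41 and FSTL3, another activin-binding protein, from 6.62 to 15.95 CPM, log2 fold change 1.27. FGF1 and FGF2 fell, from 18.1 to 8.97 CPM, log2 fold change -1.02 and from 36.7 to 18.003 CPM, log2 fold change -1.03, and WNT7B fell from 49.6 to 24.3 CPM, log2 fold change -1.03. BDNF, a neurotrophin, rose from 19.9 to 43.7 CPM, log2 fold change 1.14.

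Several abundant genes of lysosomal proteins that cells also release rose. PSAP (ENSG00000197746, chr10:71816298-71851375, minus strand), the precursor of the saposins that help degrade sphingolipids, was at 821, 829 and 839 CPM in the cycling libraries and 3097, 2863 and 2977 CPM in the senescent libraries (log2 fold change 1.84, SE 0.034, edgeR adjusted p = 2.70e-49), and its level rose from 883 to 2907 TPM, the highest of the secreted list in senescent cells. GRN, the progranulin gene, was at 197, 206 and 208 CPM in cycling cells against 659.6, 591 and 612 CPM in senescent cells (log2 fold change 1.61, SE 0.038, edgeR adjusted p = 1.91e-43). CTSB, CTSD and CTSA, lysosomal proteases and a protective carboxypeptidase, rose from 553 to 1186 CPM, from 119 to 295 CPM and from 162 to 447 CPM, with log2 fold changes of 1.10, 1.31 and 1.46. In the cathepsin and cystatin family 11 of 15 were higher and 1 lower, and 7 rose at least 2-fold. CTSF rose from 18.97 to 56.8 CPM, log2 fold change 1.58 and CTSO from 4.81 to 15.7 CPM, log2 fold change 1.69. LGALS3BP, a galectin-binding glycoprotein, rose from 537 to 1188 CPM, log2 fold change 1.15, CHI3L1, a chitinase-like protein, from 4.32 to 17.8 CPM, log2 fold change 2.04, and PTX3, a soluble pattern recognition protein, fell from 162 to 76.3 CPM, log2 fold change -1.09.

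Proteases and matrix proteins differed by family and member. Of 18 matrix metalloproteinases and TIMPs, 11 were higher and 3 lower, where 35.6% and 34.4% of all genes were. MMP1, interstitial collagenase, was at 7.88, 9.88 and 8.10 CPM in cycling cells against 32.3, 28.9 and 32.1 CPM in senescent cells (log2 fold change 1.85, SE 0.076, edgeR adjusted p = 4.64e-31), MMP2 rose from 85.3 to 194 CPM, log2 fold change 1.19 and MMP16 from 36.4 to 100.1 CPM, log2 fold change 1.46, and MMP13 fell from 1.35 to 0.190 CPM, log2 fold change -2.81. The inhibitors TIMP1 and TIMP2 rose from 97.2 to 148 CPM and from 484 to 795 CPM, and TIMP3 was lower (from 47.9 to 39.0 CPM, log2 fold change -0.30). MMP1 overlaps WTAPP1. Of 28 ADAM and ADAMTS proteases, 16 were higher and 9 lower with a median log2 fold change of 0.71, but of the 15 with a mean of at least 5 CPM 7 were higher and 8 lower with a median of -0.12. ADAMTS7 rose from 18.3 to 108 CPM, log2 fold change 2.56. The IGF-binding protein proteases PAPPA and HTRA1 rose from 19.5 to 64.6 CPM and from 69.6 to 201 CPM, log2 fold changes 1.73 and 1.53. PLAU, the urokinase gene, rose from 904 to 1113 CPM, log2 fold change 0.30.

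Collagens numbered 18 higher and 3 lower of 26, with 10 rises and no fall of at least 2-fold. The alpha-5 and alpha-6 chains of type IV collagen, COL4A5 and COL4A6, rose from 37.3 to 125 CPM and from 3.23 to 12.6 CPM, while the more highly counted COL4A1 and COL4A2 fell from 434 to 337 CPM and from 729 to 584 CPM. Log2 fold changes were 1.74, 1.96, -0.36 and -0.32. COL7A1, of anchoring fibrils, rose from 16.2 to 54.8 CPM, log2 fold change 1.76 and COL13A1, a transmembrane collagen, fell from 377 to 209 CPM, log2 fold change -0.85. Among matricellular proteins SPP1, which encodes osteopontin, was at 4.42, 4.13 and 6.01 CPM in cycling cells against 30.4, 26.7 and 28.5 CPM in senescent cells (log2 fold change 2.54, SE 0.094, edgeR adjusted p = 8.12e-31). FN1 rose from 1125 to 2053 CPM, log2 fold change 0.87, SPARC from 1864 to 3114 CPM, log2 fold change 0.74 and SPOCK1 from 43.4 to 213 CPM, log2 fold change 2.29, whereas THBS1 fell from 1182 to 799.9 CPM, log2 fold change -0.56, EFEMP1 from 614 to 352 CPM, log2 fold change -0.80 and CCN2 from 352 to 243 CPM, log2 fold change -0.54. VCAN, the proteoglycan versican, rose from 3.17 to 16.9 CPM, log2 fold change 2.42 and overlaps VCAN-AS1. Of 10 S100 proteins 7 were lower and 2 higher, S100A6 falling from 480.2 to 325 CPM, log2 fold change -0.56 and S100A16 from 423 to 249.6 CPM, log2 fold change -0.76, while S100A11 rose from 261 to 334 CPM, log2 fold change 0.35. Further secreted factor genes named above that overlap another annotated gene are C1R, C1RL, CFI, CLU, IL6, LIF, KITLG, IL32, MIF, FGF2, BDNF, CTSD, CTSA, PTX3, MMP2, MMP16, TIMP2, PAPPA, HTRA1, PLAU, COL4A2, COL7A1, SPARC, THBS1, CCN2 and S100A6.

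**Figure D4:**
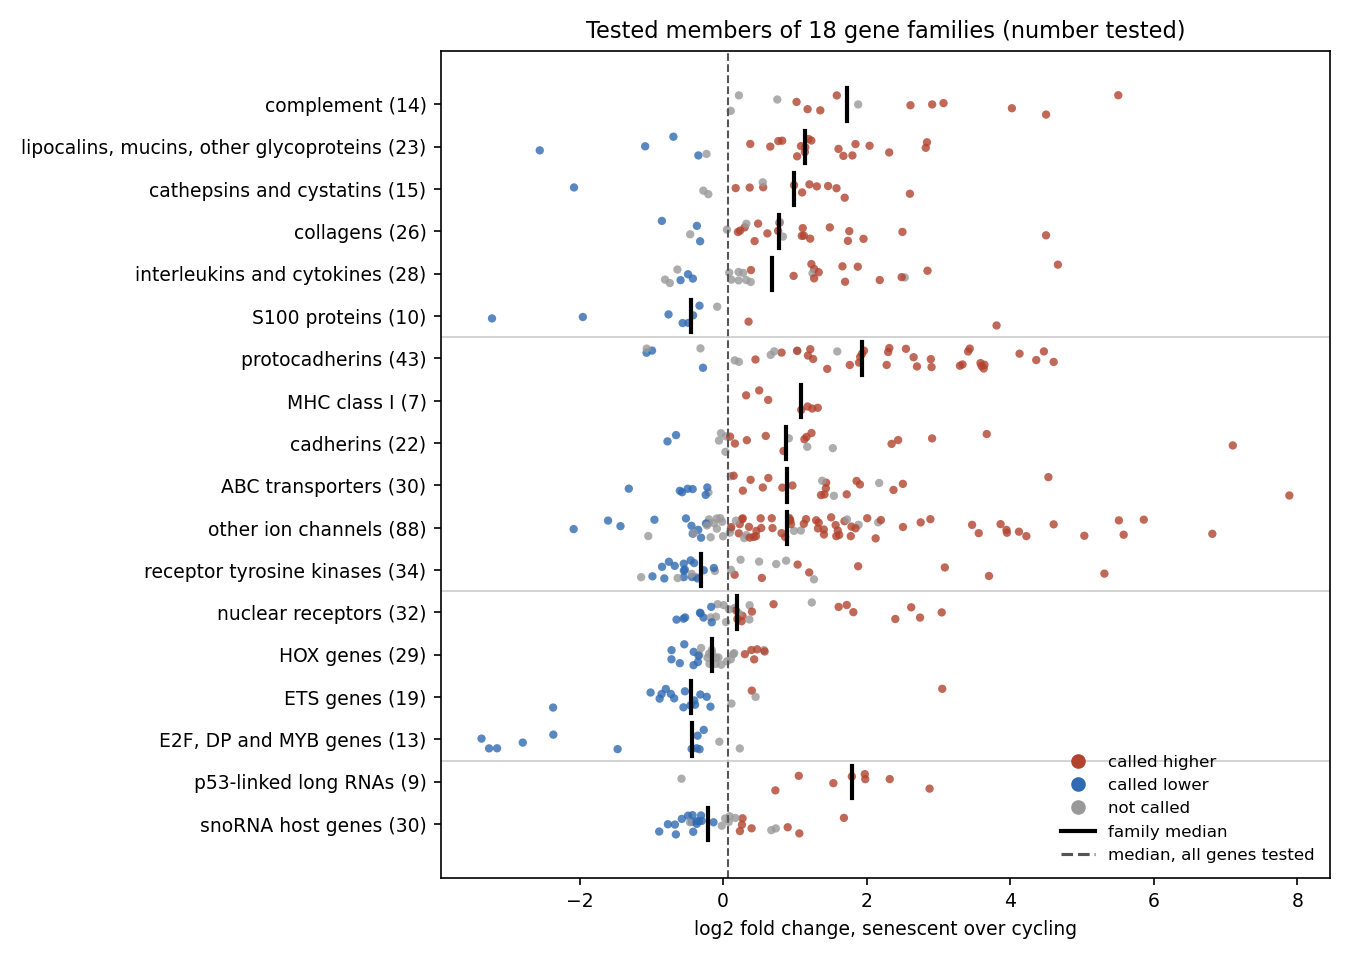
Each point is the log2 fold change, senescent over cycling, of 1 tested gene in 18 families, coloured by the edgeR call, with the family median as a black line, the number tested in parentheses and the median of all genes as a dashed line. Horizontal lines part secreted, surface, transcription factor and non-coding families. Complement and protocadherins lie mostly to the right (medians 1.73 and 1.94), E2F, DP and MYB genes and ETS genes mostly to the left (-0.44 and -0.45).

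The largest falls among transcription factor genes with a mean of at least 5 CPM included those of cell cycle regulators. MYBL2 (ENSG00000101057, chr20:43667019-43716496, plus strand), which encodes B-MYB and acts on mitotic genes, was at 139, 143 and 144 CPM in the cycling libraries and 13.7, 12.8 and 14.9 CPM in the senescent libraries (log2 fold change -3.37, SE 0.067, edgeR adjusted p = 1.18e-47). E2F1 (ENSG00000101412, chr20:33675683-33686404, minus strand), an activator of S-phase genes, was at 67.3, 68.4 and 65.0 CPM in the cycling libraries and 9.90, 9.85 and 9.23 CPM in the senescent libraries (log2 fold change -2.79, SE 0.082, edgeR adjusted p = 1.31e-38). E2F2 was at 17.4, 19.2 and 16.5 CPM in cycling cells against 1.89, 1.58 and 2.08 CPM in senescent cells (log2 fold change -3.26, SE 0.18, edgeR adjusted p = 1.37e-24). These values were tightly grouped and low in the senescent libraries. E2F8, a repressor of the same family that overlaps AC009652.2, fell from 21.0 to 2.36 CPM, log2 fold change -3.15, and ZNF367 fell from 48.5 to 6.92 CPM, log2 fold change -2.81. Of 13 E2F, DP and MYB genes 11 were lower and none higher, 6 at least 2-fold, and TFDP1, the dimer partner of E2F proteins, fell from 328 to 118 CPM, log2 fold change -1.47. E2F5 and TFDP2 were not called. FOXM1, the forkhead factor of mitotic genes, fell from 245 to 67.6 CPM, log2 fold change -1.86 and overlaps ITFG2.

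The promoters of falling genes were read for short motifs, and those of 3 leading falls are shown because they hold the E2F letters. RefSeq windows of 300 bases, from 250 before to 50 after an annotated start (GRCh38.p14), were searched on both strands for TTTNNCGC. Capitals mark every match, and adjoining matches run together. The windows are E2F1 at chr20:33686336-33686635, minus strand, E2F2 at chr1:23531184-23531483, minus strand and ZNF367 at chr9:96418321-96418620, minus strand.
E2F1: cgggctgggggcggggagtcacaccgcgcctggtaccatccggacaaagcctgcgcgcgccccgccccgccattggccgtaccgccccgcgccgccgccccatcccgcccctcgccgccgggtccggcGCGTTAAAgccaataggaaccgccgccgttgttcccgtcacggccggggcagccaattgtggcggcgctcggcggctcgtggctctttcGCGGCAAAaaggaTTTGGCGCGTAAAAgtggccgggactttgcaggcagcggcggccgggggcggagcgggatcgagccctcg
E2F2: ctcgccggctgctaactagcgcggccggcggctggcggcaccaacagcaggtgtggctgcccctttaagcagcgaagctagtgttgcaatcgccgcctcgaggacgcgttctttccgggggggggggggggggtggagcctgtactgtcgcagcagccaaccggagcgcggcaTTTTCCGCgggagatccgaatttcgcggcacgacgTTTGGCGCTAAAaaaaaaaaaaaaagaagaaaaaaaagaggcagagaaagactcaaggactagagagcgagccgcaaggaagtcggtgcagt
ZNF367: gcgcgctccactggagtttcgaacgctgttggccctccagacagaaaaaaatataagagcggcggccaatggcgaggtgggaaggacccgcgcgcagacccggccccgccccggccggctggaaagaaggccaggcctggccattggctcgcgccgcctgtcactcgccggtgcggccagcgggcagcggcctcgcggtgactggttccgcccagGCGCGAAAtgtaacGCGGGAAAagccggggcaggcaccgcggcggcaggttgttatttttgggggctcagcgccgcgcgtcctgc
There were 4 matches in E2F1, 3 in E2F2 and 2 in ZNF367, and none in the MYBL2 window. A match is a description of letters and not a measured binding site.

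Of the 1081 genes that fell at least 2-fold at a mean of at least 5 CPM, 865 had a window (80.0%), as had 8899 of all 11006 (80.9%). Genes with several annotated starts had several windows, so shares are of windows. TTTNNCGC was in 184 of 1213 windows of falling genes (15.2%) and in 9.90% of 13046 windows of all genes at that level. The cell cycle homology letters TTTGAA were in 17.6% against 10.4%, and the CCAAT box in 42.8% against 34.9%. The AP-1 letters TGANTCA were in 4.04% against 5.16%, the TATA box (TATAAA) in 6.18% against 5.90%, the interferon-stimulated response element in 2.39% against 2.78%, and CACGTGAC in 3.71% against 4.17%. The p53 decamer with CATG at its core was in 0.989% against 1.10%, and with any of the 4 pairs of A and T at the core in 5.19% against 5.60%, a wider form that was added after the data were seen. Over all 35116 RefSeq windows TTTNNCGC was in 6.89%. The search over rising genes is void, since windows existed for 71.8% of them. No test was made of these shares.

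ETS factors, some of them effectors of ERK signalling, leaned downwards, 15 of 19 lower and 2 higher with a median of -0.45. Over all genes, 34.4% were lower. ETV4 was at 61.7, 64.4 and 63.0 CPM in cycling cells against 10.4, 14.8 and 11.3 CPM in senescent cells (log2 fold change -2.37, SE 0.081, edgeR adjusted p = 2.00e-34), and ETV5 fell from 117 to 57.9 CPM, log2 fold change -1.01. ETV4 overlaps DHX8 and ETV5 overlaps DGKG. KLF and SP genes were 12 lower and 3 higher of 20, with KLF2, a factor of the endothelium and of quiescent cells, falling from 106 to 36.3 CPM, log2 fold change -1.55 and KLF9 rising from 15.3 to 33.9 CPM, log2 fold change 1.15. HMGA1, an architectural chromatin protein counted with the factors here, had the highest level of the class in both states by TPM, and was at 1563, 1559 and 1610.4 CPM in cycling cells against 497, 502 and 476 CPM in senescent cells (log2 fold change -1.68, SE 0.035, edgeR adjusted p = 1.38e-46). MYC fell from 41.4 to 21.7 CPM, log2 fold change -0.93, and MXD4, a MYC antagonist, rose from 34.7 to 96.9 CPM, log2 fold change 1.48. Of 29 HOX genes, which mark position along the body, 5 were higher, 8 lower and 16 not called, none by 2-fold, and their median of -0.15 turned to 0.02 in the fit scaled on genes of at least 5 CPM.

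Members of several families rose, among them nuclear receptors and parts of the NF-kB and STAT families. NR4A2 (ENSG00000153234, chr2:156324432-156342348, minus strand), an orphan nuclear receptor of the immediate early kind, was at 2.65, 3.58 and 2.68 CPM in the cycling libraries and 15.1, 16.1 and 16.02 CPM in the senescent libraries (log2 fold change 2.40, SE 0.11, edgeR adjusted p = 9.02e-29), and its relatives NR4A1 and NR4A3 rose from 1.74 to 5.31 CPM and from 0.596 to 5.00 CPM. In the nuclear receptor family, 13 of 32 were higher and 8 lower, where 35.6% and 34.4% of all genes were. Of the 22 with a mean of at least 5 CPM, 8 were higher and 8 lower. RORA rose from 2.59 to 8.59 CPM, log2 fold change 1.72 and overlaps other genes. STAT2, which carries interferon signals, was at 43.0, 40.8 and 40.5 CPM in cycling cells against 118, 119 and 119 CPM in senescent cells (log2 fold change 1.52, SE 0.048, edgeR adjusted p = 1.44e-36), with its partner IRF9 rising from 1.47 to 3.98 CPM, log2 fold change 1.42. RELB and NFKB2, the noncanonical NF-kB pair, rose from 16.3 to 39.7 CPM and from 64.0 to 123.2 CPM, and NFKB1, the canonical subunit, fell from 99.7 to 47.3 CPM, log2 fold change -1.07. MEIS3, a homeobox cofactor, rose from 7.04 to 33.1 CPM, log2 fold change 2.24, EPAS1, the hypoxia factor HIF-2alpha, from 49.7 to 162 CPM, log2 fold change 1.71, and CEBPB, a regulator of cytokine genes, from 51.6 to 101 CPM, log2 fold change 0.97.

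AP-1, ATF, CREB and MAF genes were divided, 16 higher and 19 lower of 42, beside 35.6% and 34.4% of all genes. Of the 36 with a mean of at least 5 CPM, 14 were higher and 19 lower, beside 30.0% and 52.6% of all such genes. ATF3 rose from 11.7 to 26.9 CPM, log2 fold change 1.20, and ATF4 fell from 326 to 182 CPM, log2 fold change -0.84. FOS, an immediate early gene, spread widely within each group, at 18.5, 49.1 and 36.3 CPM in cycling cells against 17.2, 6.44 and 11.6 CPM in senescent cells, so that the lowest cycling library lay just above the highest senescent one (log2 fold change -1.57, SE 0.43, edgeR adjusted p = 0.0073). In a fit of the 6 libraries alone its adjusted p was 0.0595. DLX1, a homeobox gene, fell from 22.8 to 5.79 CPM, log2 fold change -1.98, TWIST2 from 22.6 to 7.75 CPM, log2 fold change -1.54, GLI2 from 23.6 to 9.54 CPM, log2 fold change -1.31 and TEAD4, a partner of YAP, from 28.5 to 10.2 CPM, log2 fold change -1.48. SNAI2, which encodes the mesenchymal factor SLUG, rose from 13.2 to 35.3 CPM, log2 fold change 1.42, and TBX3 rose from 37.7 to 84.9 CPM, log2 fold change 1.17.

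Numbered zinc finger genes were 178 higher and 84 lower of 384, at least 2-fold in 55 and 11 of them, and with a median log2 fold change of 0.22. Those on chromosome 19, where such genes lie in clusters, numbered 85 higher and 25 lower of 157 with a median of 0.36, and those elsewhere 93 higher and 59 lower of 227 with a median of 0.11. ZNF432 was at 6.03, 6.99 and 8.10 CPM in cycling cells against 42.8, 43.8 and 45.1 CPM in senescent cells (log2 fold change 2.63, SE 0.082, edgeR adjusted p = 2.13e-33) and its neighbour ZNF841 at 11.3, 11.2 and 9.89 CPM in cycling cells against 35.1, 37.3 and 38.5 CPM in senescent cells (log2 fold change 1.78, SE 0.071, edgeR adjusted p = 8.45e-32), which overlap on the same strand, so that their reads may be shared. ZNF862 rose from 3.08 to 15.1 CPM, log2 fold change 2.29 and ZNF514, which overlaps MRPS5, from 2.62 to 11.7 CPM, log2 fold change 2.15. Many members are close copies of each other, and single values are uncertain for that reason. Further transcription factor genes named above that overlap another annotated gene are MXD4, NR4A1, IRF9, CEBPB and ZNF862.

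**Figure D5:**
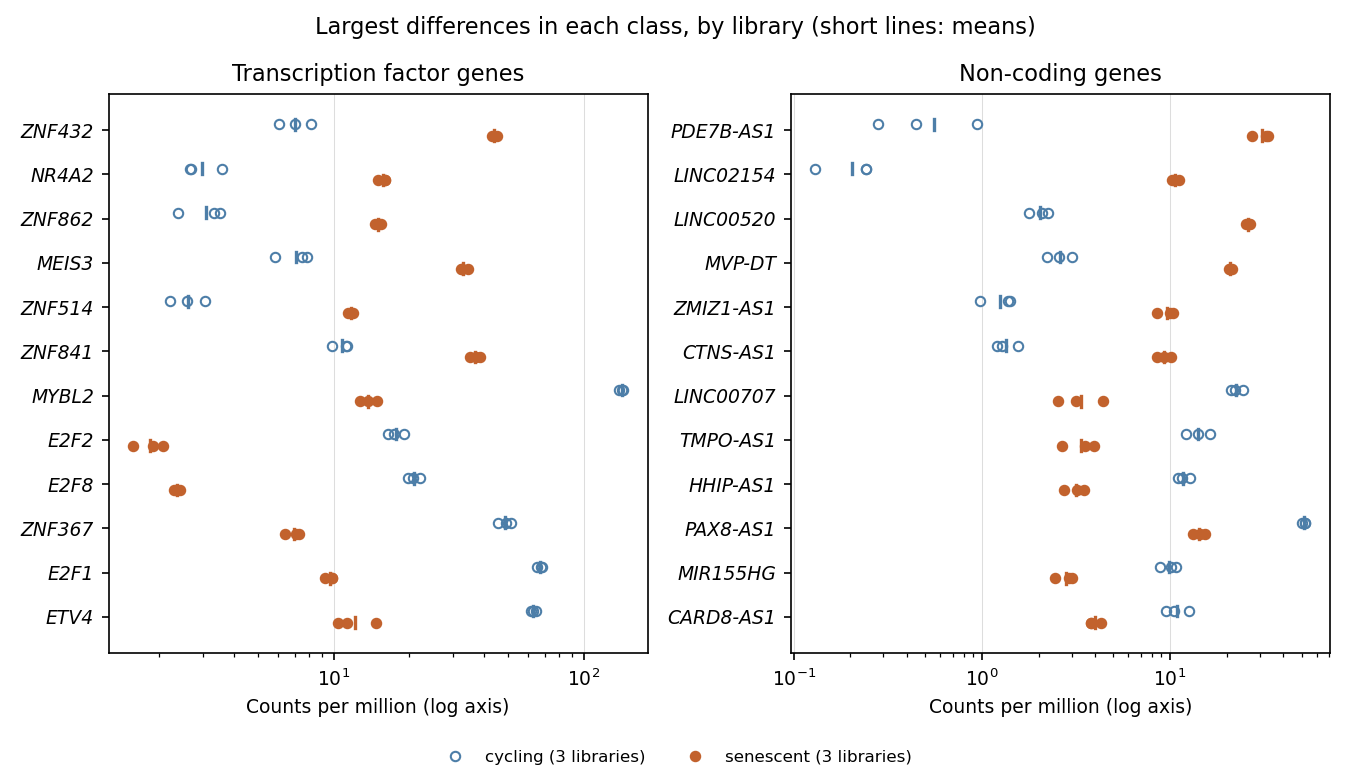
Each point is 1 library, open for cycling and filled for senescent, on a log axis of CPM, with short lines at group means, for the 6 largest rises and 6 largest falls among transcription factor genes (left) and non-coding genes (right). Only genes whose groups stand apart could be chosen, with MYBL2 falling from 142 to 13.8 CPM and PDE7B-AS1 rising from 0.559 to 30.9 CPM.

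Non-coding genes were mostly higher where called, 732 higher and 149 lower of 1647 tested, while 766 were not called. Most lie at low counts, where rises were also common among all genes. PDE7B-AS1 (ENSG00000237596, chr6:135991936-136225751, minus strand) was at 0.282, 0.448 and 0.947 CPM in the cycling libraries and 27.3, 33.0 and 32.5 CPM in the senescent libraries (log2 fold change 5.73, SE 0.25, edgeR adjusted p = 2.66e-10). It overlaps PDE7B on the other strand, and PDE7B itself rose from 3.63 to 11.4 CPM, log2 fold change 1.66. LINC02154 (ENSG00000235385, chrX:13266048-13303452, minus strand), which overlaps no other gene, was at 0.241, 0.241 and 0.131 CPM in the cycling libraries and 10.5, 10.3 and 11.2 CPM in the senescent libraries (log2 fold change 5.70, SE 0.20, edgeR adjusted p = 6.28e-35). LINC00520 was at 2.25, 1.79 and 2.09 CPM in cycling cells against 25.3, 26.3 and 26.5 CPM in senescent cells (log2 fold change 3.67, SE 0.10, edgeR adjusted p = 5.55e-40). All 3 were near the bottom of the range in each cycling library and high in each senescent one. MVP-DT rose from 2.61 to 20.9 CPM, log2 fold change 3.01, ZMIZ1-AS1 from 1.25 to 9.64 CPM, log2 fold change 2.95 and CTNS-AS1 from 1.35 to 9.30 CPM, log2 fold change 2.78. Of these, MVP-DT and CTNS-AS1 overlap genes on the other strand.

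Fewer non-coding genes fell. LINC00707 was at 21.2, 24.3 and 22.0 CPM in cycling cells against 3.18, 4.42 and 2.53 CPM in senescent cells (log2 fold change -2.73, SE 0.14, edgeR adjusted p = 6.89e-27) and overlaps other genes on its strand. PAX8-AS1 was at 51.9, 50.1 and 52.3 CPM in cycling cells against 13.3, 15.3 and 14.4 CPM in senescent cells (log2 fold change -1.85, SE 0.071, edgeR adjusted p = 1.21e-32), and TMPO-AS1 at 16.3, 12.1 and 14.0 CPM in cycling cells against 3.54, 2.65 and 3.95 CPM in senescent cells (log2 fold change -2.06, SE 0.22, edgeR adjusted p = 2.10e-08). HHIP-AS1 fell from 11.8 to 3.16 CPM, log2 fold change -1.90 and CARD8-AS1 from 10.9 to 3.97 CPM, log2 fold change -1.46. The 4 antisense genes overlap the gene of their name, so their reads are uncertain without knowledge of how strand was used in counting. By naming group, 223 of 416 LINC genes were higher and 33 lower (median 0.98). For antisense genes it was 307 of 678 higher and 57 lower (0.55), and for divergent genes 135 of 346 higher and 26 lower (0.60). The shares of all genes were 35.6% and 34.4%. At a mean of at least 5 CPM the medians were 0.30, 0.17 and 0.04 in the same order, beside -0.18 over all such genes. At that level 24 of 54 divergent genes were higher and 15 lower.

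Long RNAs that the literature ties to p53 rose in 8 of 9 tested, 7 of them at least 2-fold, and none fell. NEAT1 (ENSG00000245532, chr11:65422774-65445540, plus strand), the scaffold of nuclear paraspeckles, was at 319, 316 and 315 CPM in the cycling libraries and 1184, 1296 and 1254 CPM in the senescent libraries (log2 fold change 1.97, SE 0.10, edgeR adjusted p = 5.83e-09). PURPL (ENSG00000250337, chr5:27472292-27496401, plus strand), a p53-regulated long RNA, was at 31.2, 30.0 and 30.6 CPM in the cycling libraries and 149, 151 and 158 CPM in the senescent libraries (log2 fold change 2.32, SE 0.053, edgeR adjusted p = 7.33e-37). Both were several fold higher in every senescent library. PINCR rose from 6.36 to 22.0 CPM, log2 fold change 1.79, TP53TG1 from 3.74 to 10.8 CPM, log2 fold change 1.54 and PVT1 from 28.8 to 59.9 CPM, log2 fold change 1.05. The RefSeq promoter window of PURPL (chr5:27472042-27472341, plus strand) is shown because it holds 2 adjoining matches, in capitals, to the p53 decamer with any of the 4 pairs of A and T at its core, a form that 6.63% of all RefSeq windows hold at least once. The second has CATG at its core, which 1.57% of all RefSeq windows hold. The window of GPNMB, another rising gene, was searched for CACGTGAC and held no match. These windows were picked singly, the search over rising genes is void, and binding was not tested.
PURPL: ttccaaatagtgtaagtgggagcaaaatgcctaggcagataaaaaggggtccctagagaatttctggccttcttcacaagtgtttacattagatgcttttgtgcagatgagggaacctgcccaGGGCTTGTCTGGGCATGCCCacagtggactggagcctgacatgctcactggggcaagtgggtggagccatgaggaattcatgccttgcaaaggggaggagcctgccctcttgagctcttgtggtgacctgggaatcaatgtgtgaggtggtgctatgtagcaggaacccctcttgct
MALAT1, an abundant nuclear RNA, was at 56.6, 60.5 and 58.3 CPM in cycling cells against 291, 296 and 305 CPM in senescent cells (log2 fold change 2.35, SE 0.084, edgeR adjusted p = 1.82e-11), and it overlaps other annotated genes. LUCAT1 rose from 4.36 to 10.9 CPM, log2 fold change 1.33 and FTX from 16.8 to 39.8 CPM, log2 fold change 1.24, while DANCR fell from 81.7 to 35.3 CPM, log2 fold change -1.21 and OIP5-AS1 from 91.0 to 48.8 CPM, log2 fold change -0.90. NORAD, which restrains Pumilio proteins, rose from 247 to 358 CPM, log2 fold change 0.54.

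Host genes of microRNAs were 22 higher and 8 lower of 41, where 35.6% and 34.4% of all genes were. The mature microRNAs of 6 hosts are shown, with the seed (bases 2 to 8) in capitals, because the hosts moved in different directions and no 2 of the 6 share a seed.
miR-22-3p: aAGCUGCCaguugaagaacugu
miR-210-3p: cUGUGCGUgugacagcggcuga
miR-34a-5p: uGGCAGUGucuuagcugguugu
miR-31-5p: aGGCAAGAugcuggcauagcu
miR-155-5p: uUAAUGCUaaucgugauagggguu
miR-17-5p: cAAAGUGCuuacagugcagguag
Sequences are from RefSeq on GRCh38.p14, at chr17:1713914-1713935, chr11:568112-568133, chr1:9151735-9151756, chr9:21512158-21512178, chr21:25573983-25574006 and chr13:91350618-91350640. MIR22HG was at 26.4, 26.3 and 27.7 CPM in cycling cells against 75.4, 78.0 and 72.2 CPM in senescent cells (log2 fold change 1.49, SE 0.060, edgeR adjusted p = 1.24e-29), and MIR210HG, known for its response to low oxygen, at 7.48, 7.71 and 6.99 CPM in cycling cells against 21.0, 22.8 and 19.1 CPM in senescent cells (log2 fold change 1.51, SE 0.14, edgeR adjusted p = 5.63e-10). MIR34AHG, the host of the p53-induced miR-34a, rose from 0.109 to 0.884 CPM, log2 fold change 2.88, and MIR31HG from 6.05 to 14.0 CPM, log2 fold change 1.21. The ratio of MIR34AHG is uncertain, since it had few counts in cycling cells. MIR155HG was at 10.1, 10.7 and 8.85 CPM in cycling cells against 2.45, 2.90 and 3.02 CPM in senescent cells (log2 fold change -1.82, SE 0.16, edgeR adjusted p = 3.06e-16), and MIR17HG, the host of an oncogenic cluster, fell from 4.62 to 1.91 CPM, log2 fold change -1.27. The libraries hold the long host transcripts, so these values give no level of the mature microRNAs.

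Host genes of snoRNAs, whose introns release guides for ribosomal RNA modification, were 7 higher and 15 lower of 30. The shares of all genes were 35.6% and 34.4%. Of the 23 with a mean of at least 5 CPM, 6 were higher and 12 lower, beside 30.0% and 52.6% of all such genes. Their median at that level was -0.13, beside -0.18. Over all 30 the median was -0.22, and it turned to 0.02 in the fit scaled on genes of at least 5 CPM. SNHG1 fell from 140.4 to 75.8 CPM, log2 fold change -0.89, SNHG5 from 188 to 110.4 CPM, log2 fold change -0.77 and SNHG16 from 142 to 95.6 CPM, log2 fold change -0.57, while SNHG14 rose from 29.2 to 54.6 CPM, log2 fold change 0.90 and GAS5 was not called (from 217 to 214 CPM, log2 fold change -0.02). Among 430 annotated snoRNA and scaRNA genes, 37 could be tested, 3 higher and 3 lower, and the libraries were made with a kit for mRNA. Further non-coding genes named above that overlap another annotated gene are NEAT1, TP53TG1, PVT1, FTX, DANCR, OIP5-AS1, MIR22HG, MIR34AHG, MIR31HG, MIR155HG, MIR17HG, SNHG1, SNHG5, SNHG16, SNHG14 and GAS5.

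Outside the 4 classes, 440 of 9012 protein-coding genes at a mean of at least 5 CPM rose at least 2-fold (4.88%) and 965 fell (10.7%). The shares of all genes at that level were 6.82% and 9.82%, and their balance depended on the scaling. CLCA2 (ENSG00000137975, chr1:86424086-86456558, plus strand), a p53-induced regulator of chloride channels, was at 1.81, 0.516 and 1.44 CPM in the cycling libraries and 56.1, 56.2 and 60.3 CPM in the senescent libraries (log2 fold change 5.54, SE 0.13, edgeR adjusted p = 2.55e-25). PDK2, a kinase that restrains pyruvate dehydrogenase, rose from 1.01 to 15.47 CPM, log2 fold change 3.95, GCNT3, a glycosyltransferase of mucins, from 0.701 to 10.4 CPM, log2 fold change 3.92 and PCLO, a presynaptic scaffold, from 1.68 to 24.6 CPM, log2 fold change 3.86. CCDC30, which overlaps PPCS, rose from 1.29 to 25.0 CPM, log2 fold change 4.26, and MYCT1 from 0.653 to 10.1 CPM, log2 fold change 3.98. PDK2 overlaps SAMD14. APLN (ENSG00000171388, chrX:129645259-129654937, minus strand), which encodes the peptide hormone apelin and was not in the secreted list, was at 16.1, 14.98 and 19.6 CPM in the cycling libraries and 1.26, 0.726 and 0.590 CPM in the senescent libraries (log2 fold change -4.29, SE 0.21, edgeR adjusted p = 5.80e-25). ACOX2, a peroxisomal oxidase, fell from 15.7 to 1.56 CPM, log2 fold change -3.33, POLE2, a DNA polymerase epsilon subunit, from 15.9 to 1.59 CPM, log2 fold change -3.32 and WDR76 from 44.2 to 4.47 CPM, log2 fold change -3.31. FAM111B, a protease linked to replication, and CCNE2, cyclin E2, fell from 69.6 to 4.35 CPM and from 36.4 to 4.01 CPM. PDE7B and CCNE2 also overlap another annotated gene.

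Some genes were at or near 0 counts in cycling cells. Of the genes tested, 1013 had at most 3 counts in each cycling library, and 49 of these reached a mean of 1 CPM in senescent cells, 33 of them protein-coding. No fold is given for them, because 1 to 3 counts fix no ratio. The low-count filter could admit such genes through the senescent libraries, so the number 1013 depends on that filter. No count of genes near 0 in senescent cells is given beside it. The number therefore cannot show that more genes were near 0 in cycling than in senescent cells. TPRG1LP1, a processed pseudogene, was at 4.63 ± 0.318 CPM in senescent cells (SD, n = 3), with at most 3 counts in a cycling library. SARM1, an NAD-cleaving enzyme of axon degeneration, was at 3.55 ± 0.175 CPM, with at most 3 counts in a cycling library, and overlaps genes on both strands. LINC01173 was at 3.33 ± 0.550 CPM, with at most 1 count in a cycling library, FAM135B at 3.17 ± 0.182 CPM, with at most 3 counts in a cycling library, and CRH, the corticotropin-releasing hormone gene, at 2.22 ± 0.416 CPM, with at most 3 counts in a cycling library. ENSG00000287088, which has no symbol, was at 2.80 ± 0.131 CPM, with at most 1 count in a cycling library. All 6 remained below 5 CPM, and reads of the pseudogene may belong to its parent gene.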

How the data were processed

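RNA was sequenced from stranded mRNA libraries. The authors deposited raw counts per gene for 15 libraries in 1 table, from which 3 broken rows were left out and 60670 genes kept. The submitters' processing notes name bcl2fastq 2.20.0.422, STAR 2.7.9a, featureCounts 1.5.1 and GRCh38. The annotation release, multi-mapping and strand settings are not given in the sources used here. Coordinates, gene types and lengths for TPM were taken from GENCODE 29 on GRCh38.

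Counts were fitted with edgeR 4.0.16 (R 4.3.3), using its low-count filter, TMM scaling and the robust quasi-likelihood test over all 15 libraries, with adjustment over 18563 genes. Standard errors were derived from each log2 fold change and its quasi-likelihood F statistic. Depth was 25991007 to 32323393 counts per compared library, and no 2 libraries agreed within sampling noise. On simulated counts for 18563 genes, 200 of them changed 2-fold, edgeR recovered 99.5% with 17 false calls. The simulated rises and falls were equal in number and all at a mean of at least 5 CPM. In the data 70.0% of genes were called, so the simulation cannot show the effect of scaling or the number of false calls there.

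Surface, secreted, transcription factor and non-coding lists, families and the members were chosen with earlier results of these data known. Named genes were the 4 markers, the 6 largest called rises and falls per class and outside the classes among genes with a mean of at least 5 CPM and no overlap between groups, the 2 largest 2-fold changes each way per family, and the 6 highest genes near 0 in cycling cells. Others were chosen after values were seen. Alternatives used DESeq2 1.42.0, limma 3.58.1 (voom), other scalings and filters, the 6 libraries alone, a replicate block and leaving out each library. The fit without mitochondrial genes in the scaling was chosen after seeing the data.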

Additional observations from a re-analysis of the deposited data

How the results depend on the processing

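Of the 195 genes named by the rule, 174 had a value under the 5 CPM filter. Only FOS lost its call under any alternative that gave it a value, with a log2 fold change of -1.52 and an edgeR adjusted p of 0.0595 in the fit of the 6 libraries alone, and none turned direction. Of 121 further genes in the text, which were chosen after their values were seen and of which 100 had a value under that filter, CD44, DGKG and ITFG2 lost a call in an alternative, C4B, CD47, E2F5, GAS5 and TFDP2 gained one, and no called gene turned direction. GAS5, at -0.02 in the reported fit, was called higher with library totals (0.11) and under the 5 CPM filter (0.13). Calls numbered 12994 with DESeq2's size factors in edgeR, 13008 with library totals (7726 higher and 5282 lower, 59.4% higher against 50.9%), 12944 without a filter, 12912 with DESeq2, 12842 with limma voom, 12166 in the 6 libraries alone and 12991 with scaling without mitochondrial genes. Filtering at a mean of at least 5 CPM over the 15 libraries tests 11234 genes, so fewer can be counted. It gave 1173 rises and 746 falls of at least 2-fold over all genes, 103 and 21 in surface, 89 and 5 in secreted and 59 and 22 in transcription factor genes. For non-coding genes it gave 275 calls with 108 rises and 6 falls. Under that filter the median reversed for adhesion GPCRs (-0.0183), chemokines (-0.1495), HOX genes (0.023), snoRNA host genes (0.0166) and all genes (-0.0005). Without a filter it reversed for FGF ligands (1.25) and MYC, MAX and MXD genes (0.39). With library totals it reversed for the NFI, NFAT, RFX, MEF2, HSF and p53-family genes (0.0402) and for snoRNAs (0.0223). With 1 library left out the snoRNA median ran from -0.16 to 0.0394, and it was positive without cycling replicate 2 and, at 0.0155, without senescent replicate 2. Medians close to 0 also changed sign, so 12 of 77 families did so in some alternative. EPH receptors and ephrins (-0.07) were at 0.08 under the 5 CPM filter and in the 6 libraries alone and at 0.06 with library totals and without a filter. Plexins and neuropilins (-0.06) were at 0.34 under the 5 CPM filter, 0.08 with library totals and 0.0038 in the 6 libraries alone. AP-1, ATF, CREB and MAF genes (-0.05) were at 0.08 with library totals and 0.02 without cycling replicate 2. EGR, SNAI and GLI genes (0.02) were at -0.0029, -0.024 and -0.0044 without cycling replicates 1 and 2 and senescent replicate 2. The cause of these changes of sign was not tested. Leaving out 1 library gave 12381 to 12522 calls. Replicate numbers did not pair the samples (correlations of 0.031, -0.037 and -0.00037 for same-numbered libraries), and with the replicate block 13032 genes were called, 12947 of them among the 12999. Library totals turned 133 calls to the opposite direction and the 5 CPM filter 229. Depth limits statements on genes at or under 3 counts per library.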
